A study of Mus musculus with 33 samples.

Results

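Kidneys collected 3 weeks after delivery of the interferon-alpha gene by adenovirus (Adv-IFNα) were set against untreated kidneys. All mice were BWF1, the NZB X NZW F1 cross, which develops lupus nephritis on its own. The arrays were taken by their labels: the 5 arrays of time point week 3 and the 3 arrays of the untreated group, 8 of the 33 arrays in the series, with 1 array per kidney and 1 kidney per mouse. The other arrays came from BWF1 kidneys 1, 2, 5, 7 or 9 weeks after Adv-IFNα, 5 per week, of which weeks 1, 2 and 5 were used for direct comparisons. The study describes the treated mice as young adult females that received the virus by vein, and the controls as matched in age. Age and collection week of the untreated mice are not in the labels, and no group with an empty virus is listed, so the effects of vector and interferon cannot be told apart. Levels are log2 intensities, on which a difference of 1 is a 2-fold change. The p-values and standard errors (SE) of gene changes rest on the spread between mice within every group of the 33 arrays, not on these 8 arrays alone.

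Interferon-alpha and its relatives bind a receptor made of Ifnar1 and Ifnar2 on nearly every cell. The kinases Jak1 and Tyk2 then activate transcription factors, and a complex that holds Stat2 and Irf9 binds the interferon-stimulated response element in the promoters of target genes. The products block viral replication, display antigen on MHC class I and feed back on the pathway itself. In the kidney, tubule, endothelial, glomerular and resident immune cells can all respond, and a whole-kidney array sums over them. Fewer cells of a type and less RNA per cell therefore cannot be told apart in any value below.

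The response element is shown first because it is the sequence through which many of the genes described below are known to be switched on. Its core was searched as GAAANNGAAA on both strands of RefSeq promoters (GRCm38.p6, 250 bases before to 50 bases after each start site, from a reference mouse of another strain). Of the 117 genes called up at week 3, 89 had a promoter in the table, and 35 of these (39.3%) held the core, against 488 of 13605 measured genes with a promoter (3.59%) and 1131 of all 32851 promoters (3.44%). Among the 50 largest rises, 17 of 32 with a promoter held it (53.1%). The gamma-activated site, searched as TTCNNNGAA, which reads the same on both strands, stood in 20 of the 89 promoters (22.5%), against 8.76% of measured genes and 8.30% of all promoters, and 10 of the 89 held both motifs. The called-up genes had 49 core matches, and 28 of them (57.1%) began within 100 bases before the start site, as did 369 of 1210 matches (30.5%) in all promoters. A match describes letters only, and no test was run on these shares. The 6 largest rises with a match are printed below around the match nearest to the start, 5′ to 3′ in the direction of the gene, with each core in capitals. Overlapping cores form one longer run of capitals, as in Irgm1, and a core on the other strand reads as TTTCNNTTTC, as in Ifit1 and Apol11b.
Ifit1 (chr19:34640768-34640849, plus strand): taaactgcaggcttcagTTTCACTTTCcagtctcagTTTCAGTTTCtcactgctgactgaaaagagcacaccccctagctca
Oas3 (chr5:120777689-120777770, minus strand): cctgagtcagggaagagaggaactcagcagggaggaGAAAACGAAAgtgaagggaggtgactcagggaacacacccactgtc
Tgtp1 (chr11:48992278-48992359, minus strand): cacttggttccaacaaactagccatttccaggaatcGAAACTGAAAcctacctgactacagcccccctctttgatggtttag
Apol11b (chr15:77643291-77643372, minus strand): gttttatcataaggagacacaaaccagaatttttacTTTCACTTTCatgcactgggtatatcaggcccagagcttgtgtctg
Irgm1 (chr11:48871399-48871480, minus strand): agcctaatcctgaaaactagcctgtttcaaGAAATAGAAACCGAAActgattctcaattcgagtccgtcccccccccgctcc
Igtp (chr11:58199486-58199567, plus strand): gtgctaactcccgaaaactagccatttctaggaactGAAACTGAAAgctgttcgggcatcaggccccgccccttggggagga

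**Figure D1:**
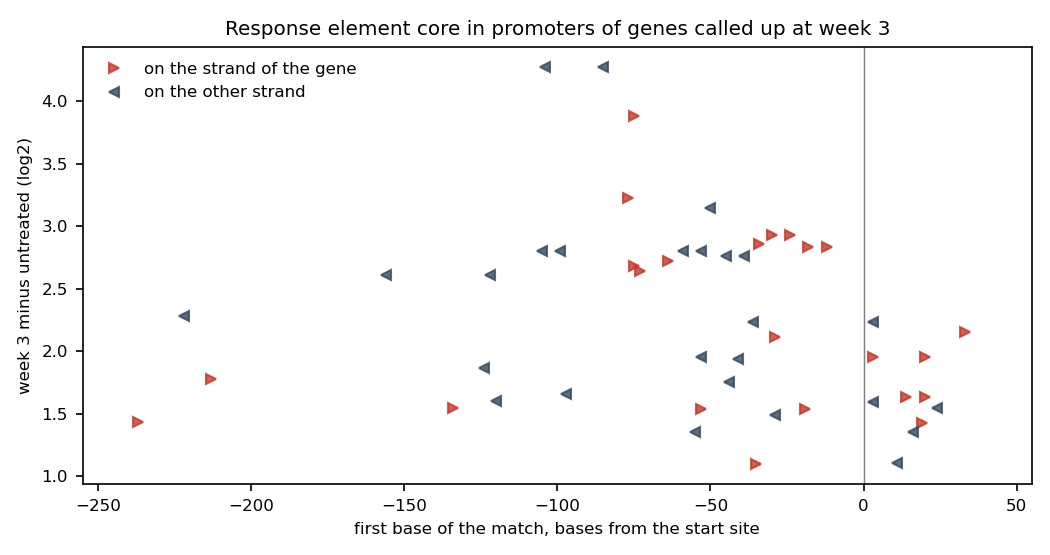
Position of each response element core in the promoters of genes called up at week 3 (x axis, bases from the start site to the first base of the match), against the change of the gene (y axis, week 3 minus untreated, log2). Right-pointing markers lie on the strand of the gene and left-pointing markers on the other strand. Of the 49 matches, 28 lie within 100 bases before the start and 11 after it.

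The change at week 3 was mostly a rise. Of 17097 genes, each represented by its brightest probe set, 117 were called up (0.684% of genes) and 4 were called down (0.0234%), where a call needed an adjusted p below 0.05 and a change above 2-fold in limma. Without the fold threshold, 258 genes rose (1.51%) and 46 fell (0.269%). The median rise of the 117 genes was 1.87 on the log2 scale, 53 of them rose more than 4-fold, 12 more than 8-fold and 3 more than 16-fold, while the median change of all genes was 0.02. Every week 3 array lay above every untreated array for 114 of the 117, as it did for 6.22% of all genes, and the exceptions were Cxcl10, Fpr2 and Gzmb. All 4 genes called down had every week 3 array below every untreated array, as did 3.57% of all genes. Of the 117, 62 belonged to at least 1 of 8 interferon-response lists, 13 to another list only and 42 to none of the 42 lists. Among the 110 measured members of the 8 lists, 70 rose and 0 fell, with a median change of 1.56. Isg15, B2m, Tap1 and Bst2 were not analysed here.

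**Figure D2:**
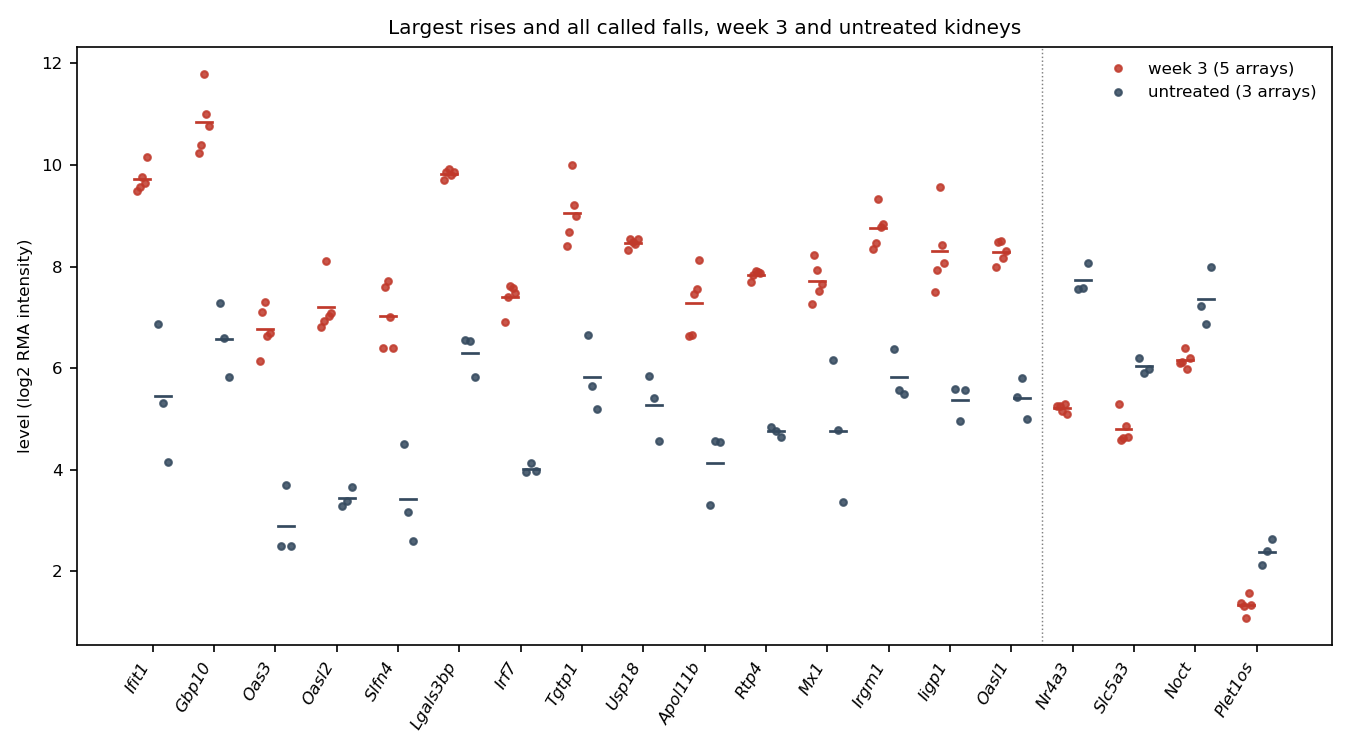
Log2 RMA intensity (y axis) in each of the 5 week 3 arrays (red, left of each pair) and the 3 untreated arrays (dark, right of each pair), for the 15 largest rises and, right of the dotted line, the 4 called falls. Horizontal bars are group means. No week 3 point overlaps an untreated point in any of these genes, and the untreated points of Ifit1 and Mx1 are the most spread among the rises.

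Effectors that act on viral RNA or on viral entry rose together. In the list of IFIT, OAS, Mx and other antiviral effectors, 23 of 27 measured members rose and none fell, with a median of 2.02. Ifit1, which binds foreign RNA ends and blocks their translation, stood at 9.49, 9.57, 9.76, 9.64 and 10.15 in week 3 kidneys, against 6.87, 5.31 and 4.15 in untreated kidneys. The untreated kidneys were widely spread while the week 3 kidneys lay close together, and the groups did not overlap. The difference was 4.28 ± 0.41 (SE; limma, adjusted p = 3.39e-08), or 19.4-fold. Oas3, an oligoadenylate synthetase that activates RNase L on double-stranded RNA, had levels of 6.14, 7.10, 7.31, 6.64 and 6.69 at week 3, against 2.50, 3.69 and 2.49 in untreated kidneys. Its change of 3.88 ± 0.47 (SE, adjusted p = 1.74e-06) was larger than the spread within either group. The related Oasl2 differed by 3.75, with week 3 replicate 3 at 8.11 and the other week 3 kidneys between 6.81 and 7.08.

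Rtp4, a chaperone-like protein that restricts several viruses, was among the tightest of the large rises. Its levels were 7.69, 7.83, 7.91, 7.89 and 7.87 in week 3 kidneys, against 4.85, 4.77 and 4.64 in untreated kidneys (difference 3.09 ± 0.29 SE, adjusted p = 1.39e-08). Mx1, a dynamin-like GTPase that traps viral nucleoproteins, reached 7.26, 8.22, 7.94, 7.52 and 7.65 at week 3, against 6.16, 4.78 and 3.37 in untreated kidneys. The groups were separate, and untreated replicate 1 came nearest to the week 3 kidneys. The difference was 2.95 ± 0.44 (SE, adjusted p = 5.79e-05). Oasl1, which restrains translation of Irf7, rose by 2.87 (adjusted p = 2.14e-06). Ddx60, a helicase of the viral RNA response, rose less, by 1.54 ± 0.38 (SE, adjusted p = 0.0324), and its call ended under 9 of 17 alternatives, leaving out any of week 3 replicates 1, 3, 4 or 5 or untreated replicate 1 among them. The probe set of Ddx60 was dim, meaning a mean below 4 over all arrays, here 3.50. The 4 members of the list that did not pass were Ifi44l (0.13), Ifitm1 (0.20), Ifit1bl1 (0.23) and Mx2 (1.08, adjusted p = 0.117).

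The GTPases that attack the membranes of intracellular pathogens moved at least as far. Of 11 measured guanylate-binding and immunity-related GTPases, 8 rose and none fell, with a median of 2.76. Gbp10 had levels of 10.23, 10.40, 11.79, 11.00 and 10.77 in week 3 kidneys, against 7.28, 6.59 and 5.83 in untreated kidneys. Week 3 replicate 3 was highest, and the groups did not overlap. The change was 4.27 ± 0.39 (SE, adjusted p = 1.39e-08). Irgm1, which regulates the other immunity-related GTPases, had 8.34, 8.47, 9.34, 8.79 and 8.84 at week 3, against 6.38, 5.57 and 5.50 in untreated kidneys (2.93 ± 0.29 SE, adjusted p = 5.41e-08), with replicate 3 again the highest. Tgtp1, of the same family, rose by 3.23 (adjusted p = 1.64e-05) and Iigp1 by 2.93 (adjusted p = 1.18e-05). Gbp4 was at -0.07 and Gbp2 (1.52) and Gbp8 (1.80) did not pass.

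The kidneys within a group were not equal in these genes. The mean level over the guanylate-binding and immunity-related GTPases was 8.02, 8.15, 9.28, 8.46 and 8.32 in the week 3 kidneys, against 6.41, 5.86 and 5.72 in the untreated kidneys. Week 3 replicate 3 was highest in this list and also in MHC class I presentation, where the means were 7.51, 7.77, 8.45, 8.01 and 7.95 at week 3, against 6.78, 6.47 and 6.49 in untreated kidneys. Over the IFIT, OAS, Mx and other antiviral effectors the week 3 kidneys lay closer, at 7.27, 7.42, 7.61, 7.43 and 7.52, against 5.65, 5.49 and 5.18. Untreated replicate 1 was the highest untreated kidney in each of these lists. Without it 127 genes were called up, and without week 3 replicate 3 the number was 110.

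Part of the signalling chain itself rose. In the list of interferon signalling and feedback, 4 of 14 measured members rose and none fell, with a median of 0.43. Irf7, the transcription factor that amplifies interferon production, had levels of 6.91, 7.41, 7.61, 7.59 and 7.47 at week 3, against 3.95, 4.13 and 3.98 in untreated kidneys. The untreated values were close to each other, and the change was 3.38 ± 0.40 (SE, adjusted p = 9.24e-07). Usp18, which removes ISG15 from proteins and shuts down signalling at the receptor, was at 8.32, 8.55, 8.48, 8.45 and 8.54 at week 3, against 5.84, 5.41 and 4.57 in untreated kidneys (3.19 ± 0.35 SE, adjusted p = 2.24e-07). The transcription factor subunits Stat2 and Irf9 rose by 2.28 and 1.61 (adjusted p = 1.32e-06 and 6.77e-05). The receptor chains did not pass: Ifnar1 was at -0.18 (adjusted p = 0.604) and Ifnar2 at 0.66 (adjusted p = 0.113). The kinases Jak1 (-0.31) and Tyk2 (0.11) and the inhibitors Socs1 (-0.40) and Socs3 (-0.28) did not pass either.

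Protein-modifying enzymes rose widely. Of 13 measured genes for ISG15 conjugation and ubiquitin ligases, 11 rose, with a median of 1.49, and of 7 measured members of the PARP family, 6 rose, with a median of 1.76. Trim30a, a ubiquitin ligase that restrains inflammatory signalling, had 8.77, 8.81, 8.56, 9.07 and 8.54 at week 3, against 7.02, 6.21 and 6.32 in untreated kidneys (2.24 ± 0.24 SE, adjusted p = 2.49e-07). Parp9 rose by 2.48 and its partner Dtx3l by 1.82, with adjusted p of 2.73e-06 and 1.73e-05. Rnf213, a giant ubiquitin ligase, Trim30d and Trim21, a cytosolic antibody receptor that also stood in the Fc receptor list as its only riser of 12 measured, rose by 1.83, 1.93 and 1.63. Parp10, Parp11 and Parp14 rose by 1.82, 1.76 and 1.83. Parp8 was at 0.15.

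The Schlafen family was uneven: 2 of 7 measured members rose, with a median of 0.23. Slfn4, a gene of myeloid cells, was at 6.41, 7.59, 7.72, 7.01 and 6.40 in week 3 kidneys, against 4.51, 3.16 and 2.59 in untreated kidneys. All week 3 kidneys exceeded the highest untreated kidney, and the change was 3.60 ± 0.61 (SE, adjusted p = 0.000519). Slfn1, which restrains T cell growth, rose by 1.35 (adjusted p = 0.0309), a call that ended under 8 of 18 alternatives, among them leaving out untreated replicate 1 or 3 or any of week 3 replicates 1 to 4. The other 5 members lay between -0.07 and 0.60.

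Sensors of foreign nucleic acid split into those that rose and those that did not. Of 16 measured, 8 rose and 0 fell, with a median of 0.71. The RNA sensor Ifih1, also known as MDA5, stood at 7.96, 8.01, 8.44, 8.10 and 8.20 at week 3, against 6.48, 6.04 and 5.43 in untreated kidneys (2.16 ± 0.25 SE, adjusted p = 9.24e-07). Its relatives Dhx58 and Ddx58, the RIG-I gene, rose by 2.13 and 1.59, with adjusted p of 1.12e-05 and 1.63e-06. Ifi204, a DNA-binding member of the pyrin and HIN domain family, rose by 2.21 (adjusted p = 0.000438). Chosen after their values were seen, Zbp1, Ifi205 and Ifi203 of this list rose by 1.57, 1.54 and 1.10 (adjusted p = 0.00266, 0.000288 and 0.000582). Ifi203 was read by a dim probe set, and Zbp1 did not pass without untreated replicate 3 or with the beta-actin ratio in the model. The DNA sensor Cgas, at 0.04, did not pass. Nor did its adaptor Sting1, at -0.10 (3.80, 3.65, 4.26, 3.97 and 3.79 at week 3, against 3.81, 4.29 and 3.87 in untreated kidneys, adjusted p = 0.90). Aim2 was not analysed here.

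Genes of MHC class I presentation rose, and no class II gene passed the test. Of 15 measured genes of class I presentation, 8 rose, with a median of 1.16. H2-K1, a classical class I heavy chain, had 8.45, 8.53, 9.47, 8.91 and 8.99 at week 3, against 6.96, 6.42 and 6.47 in untreated kidneys (2.25 ± 0.28 SE, adjusted p = 2.72e-06). Nlrc5, the transactivator of class I genes, rose by 2.25, H2-Q4 by 2.14 and H2-T10 by 2.14, all with adjusted p below 0.05. Class I genes are close in sequence, so a probe set may read several of them. Of 11 measured class II genes, 0 rose and 0 fell, against 1.51% and 0.269% of all genes, with a median of 0.44. Chosen after their values were seen, Cd74, the class II chaperone, was at 8.46, 8.24, 10.82, 8.95 and 9.78 at week 3, against 8.56, 8.61 and 9.09 in untreated kidneys, so that week 3 replicate 3 was high and the groups overlapped (0.50 ± 0.44 SE, adjusted p = 0.667).

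**Figure D3:**
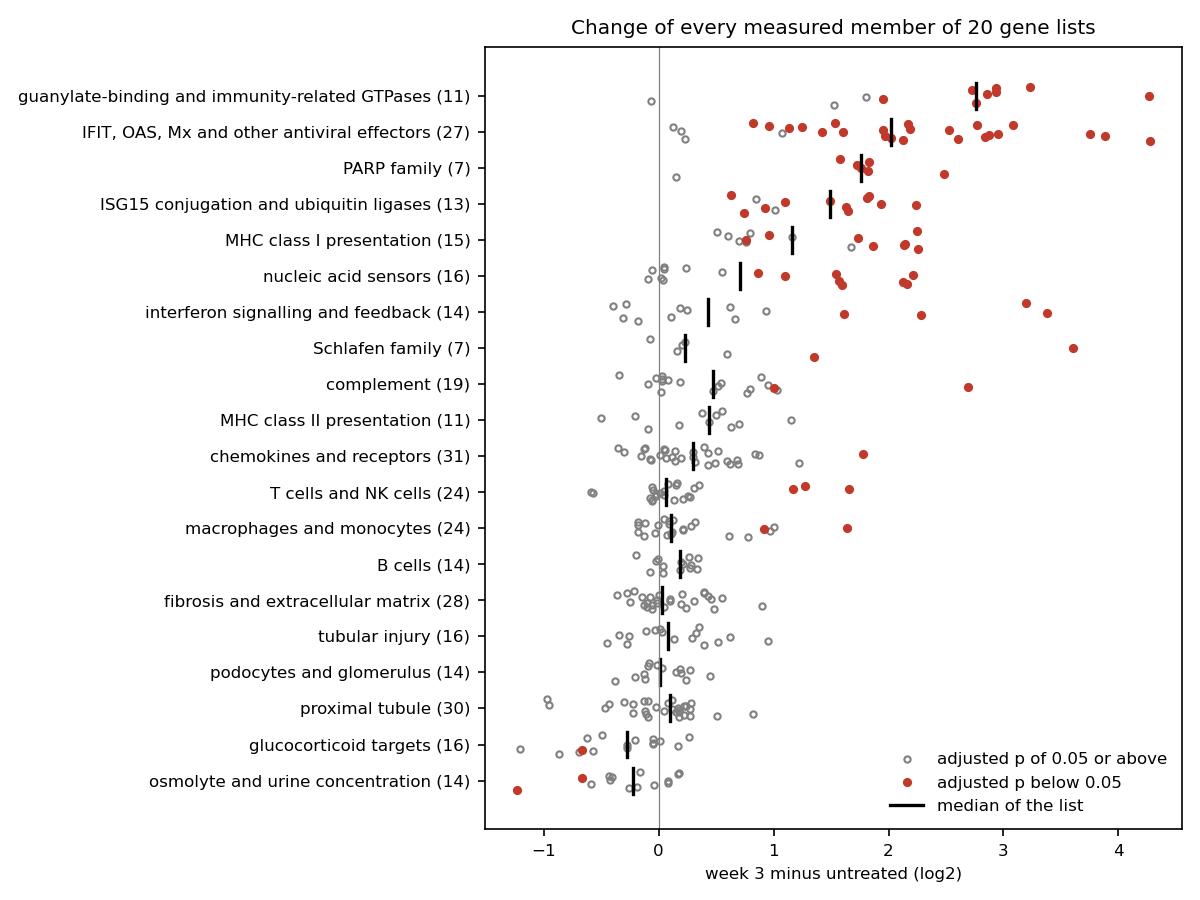
Change at week 3 minus untreated (x axis, log2) of every measured member of 20 gene lists (rows, number measured in brackets). Filled red points passed an adjusted p of 0.05, open points did not, and black bars are list medians. The medians of the guanylate-binding, antiviral and PARP lists lie at 2.76, 2.02 and 1.76, while those of the kidney and leukocyte lists lie near 0.

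Several of the 42 called-up genes outside all lists belonged to families that lie side by side. These families, and Cd274 below, were chosen after their values were seen. Outside these families, Lgals3bp, a secreted galectin ligand, had the largest rise of any gene with an official name among the 42. It stood at 9.71, 9.85, 9.93, 9.81 and 9.85 in week 3 kidneys, against 6.56, 6.54 and 5.82 in untreated kidneys (3.52 ± 0.28 SE, adjusted p = 7.56e-10). The apolipoprotein L genes Apol11b and Apol9a rose by 3.15 and 2.81, and Apol9a was not called without untreated replicate 3. Apol11b stood at 6.63, 6.65, 7.46, 7.56 and 8.13 at week 3, against 3.31, 4.57 and 4.54 in untreated kidneys, and its adjusted p was 0.000534. Members of the pyrin and HIN domain family also rose: Ifi213 by 2.64, Ifi202b, a lupus susceptibility gene of NZB mice, by 2.17, and Ifi209 by 1.53, with Ifi209 not called without untreated replicate 3 or week 3 replicate 3. The membrane proteins Ms4a4d, Ms4a4c, Ms4a6b and Ms4a6d rose by 2.19, 2.04, 1.50 and 1.45. Leaving out untreated replicate 3 ended the calls of all but Ms4a4d, and leaving out untreated replicate 2 or week 3 replicate 2 those of Ms4a6b and Ms4a6d. The Ms4a6b call also ended without week 3 replicate 4, and the Ms4a6d call without week 3 replicate 3. Cd274, the checkpoint ligand that engages PD-1 on T cells, rose by 2.16 (7.58, 7.70, 8.49, 7.89 and 7.32 at week 3, against 6.59, 5.51 and 4.81 in untreated kidneys).

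All 117 called-up genes could be placed on the assembly in the gene table, and 58 of them lay within 500 kb of another, in 20 groups. The share for other sets of genes of this size was not computed. The 2 groups with 6 genes each were the pyrin and HIN domain genes on chromosome 1 (Ifi213, Ifi209, Ifi204, Ifi203, Ifi202b and Ifi205) and a group on chromosome 19 that held Ms4a4c, Ms4a6c, Ms4a6b, Ms4a4d and Ms4a6d beside AW112010. A group of 5 on chromosome 7 held Trim6, Trim34a, Trim12c, Trim30a and Trim30d. The oligoadenylate synthetases Oas2, Oas3, Oas1b and Oas1g formed a group of 4 on chromosome 5, and Ifit2, Ifit3 and Ifit1 one of 3 on chromosome 19. Related genes such as the Ifit, Oas and Ms4a genes can share probe sequence, and their rises are then not independent measurements, while other groups held unrelated neighbours, such as Irf7 with Ifitm3. As for further probe sets, 41 called-up genes had 55 further probe sets, of which 52 changed upward, 20 passed the adjusted p in that direction and 0 passed downward.

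Of 19 measured complement genes, 2 rose (10.5%, against 1.51% of all genes), with a median of 0.48. C4b, a component of the classical and lectin pathways, was at 6.75, 7.32, 8.40, 7.90 and 7.83 at week 3, against 5.22, 5.09 and 4.52 in untreated kidneys (2.69 ± 0.35 SE, adjusted p = 6.44e-06), and kept its call under all 18 alternatives. C2, the protease that pairs with C4b, rose by 1.01 (adjusted p = 0.0329), but its call ended under 8 of 18 alternatives, leaving out untreated replicate 1 or 3 or week 3 replicate 2, 3 or 4 among them. Of 31 measured chemokines and receptors, 1 rose (3.23%), with a median of 0.30. This was Cxcl10, which draws Cxcr3-bearing T cells, at 6.85, 7.42, 7.71, 6.90 and 7.18 in week 3 kidneys, against 6.92, 4.71 and 4.69 in untreated kidneys. Untreated replicate 1 exceeded 2 of the week 3 kidneys. The change of 1.77 ± 0.41 (SE, adjusted p = 0.0169) was not called without untreated replicate 2 (1.41) or without untreated replicate 3 (1.40), with the beta-actin ratio in the model (adjusted p = 0.0686) or with only the 2 groups in it (adjusted p = 0.0864).

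Of 24 measured markers of T cells and NK cells, 3 rose (12.5%, against 1.51% of all genes) and none fell, with a median of 0.07. The granule protease gene Gzma had 5.20, 5.54, 5.68, 5.59 and 5.56 at week 3, against 3.90, 3.92 and 3.76 in untreated kidneys (1.66 ± 0.35 SE, adjusted p = 0.00736). Nkg7, a granule protein of cytotoxic lymphocytes, rose by 1.27 (adjusted p = 0.00783) and Gzmb by 1.17 (adjusted p = 0.0335), the second with overlapping groups and a call that ended under 10 of 17 alternatives, leaving out untreated replicate 1 or 3 or week 3 replicate 3, 4 or 5 among them. Nkg7 was not called without untreated replicate 3 (1.07). The probe sets of Nkg7 and Gzmb were dim, with means of 3.82 and 2.98 over all arrays. When the beta-actin 3′ to 5′ ratio of each array entered the model, none of the 3 passed, with Gzma at 1.29, Nkg7 at 1.22 and Gzmb at 0.63 (adjusted p = 0.223, 0.116 and 0.529). The T cell receptor subunit Cd3e was at -0.06, Cd8a at 0.28 and the NK receptor Ncr1 at 0.16, none past the test.

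Of 24 measured markers of macrophages and monocytes, 2 rose (8.33%, against 1.51% of all genes), with a median of 0.11: Ms4a6c by 1.64 (adjusted p = 0.0125) and Ly6c1, which endothelium also expresses, by 0.91 (adjusted p = 0.0363). Ms4a6c was not called without untreated replicate 2, and Ly6c1 did not pass under 10 of 18 alternatives, leaving out any untreated replicate among them. Csf1r was at -0.13 and Adgre1 at 0.77 (adjusted p = 0.266). Of 17 neutrophil markers, the chemotactic receptor Fpr2 rose, by 2.01 ± 0.50 (SE, adjusted p = 0.0318), with groups that overlapped, at 4.40, 6.12, 5.17, 5.03 and 4.38 at week 3, against 4.45, 1.96 and 2.62 in untreated kidneys. That call ended under 9 of 18 alternatives, leaving out untreated replicate 2 or 3 or week 3 replicate 2, 3 or 4 among them, while S100a8 and S100a9, read by dim probe sets, were at -0.25 and -0.11. None of 14 measured B cell markers and none of 10 measured plasma cell and antibody transcripts passed, with medians of 0.19 and -0.09, and Jchain was at 0.45 (adjusted p = 0.788). At the 1.51% of all genes that rose, lists of this size could hold few or none. Several antibody constant genes, among them Ighg1 and Igkc, were not analysed here.

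Single genes of other lists rose as well. Ly6e, an interferon-induced surface protein counted in the endothelial list, rose by 2.33, as the only one of 20 measured members (5.00%), with 10.71, 10.85, 10.93, 11.06 and 11.08 at week 3, against 8.53, 8.74 and 8.52 in untreated kidneys (adjusted p = 6.14e-08). In the list of cytokines and inflammasome 2 of 23 measured members rose (8.70%): Tnfsf10, the death ligand TRAIL, by 1.20, and Casp4, the sensor of intracellular endotoxin, by 1.56. Casp4 did not pass without untreated replicate 3 or with the beta-actin 3′ to 5′ ratio in the model (adjusted p = 0.100). Of 14 measured cell death genes, 2 rose (14.3%), the nuclear body proteins Sp100 by 1.77 and Pml by 0.67, and Pml did not pass under 9 of 18 alternatives, leaving out untreated replicate 1 or 2 or week 3 replicate 3, 4 or 5 among them. In the cell cycle list 2 of 30 measured members rose (6.67%): Mcm6, a subunit of the replicative helicase, by 1.06, and Ccnd1, cyclin D1, by 0.71 (adjusted p = 0.0174 and 0.0306). Mcm6 did not pass without untreated replicate 3 or week 3 replicate 3 or with the beta-actin ratio in the model (adjusted p = 0.126), nor Ccnd1 without untreated replicate 2 or 3 or week 3 replicate 3, 4 or 5.

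Few genes of the kidney's own cells passed the test. The labelled tissue was checked against Kap, a protein of the proximal tubule, which was abundant on every array, between 12.38 and 12.64 at week 3 and between 12.19 and 12.38 in untreated kidneys. None of 30 measured proximal tubule genes, 14 podocyte and glomerular genes, 17 collecting duct genes, 16 tubular injury genes or 28 genes of fibrosis and extracellular matrix passed in either direction. Of all genes, 1.51% rose and 0.269% fell, so lists of this size could hold few or none at that share. The medians were 0.10, 0.01, 0.09, 0.08 and 0.03. Havcr1, the injury marker KIM-1, was at 7.39, 7.53, 7.34, 7.02 and 7.12 in week 3 kidneys, against 7.33, 6.64 and 6.69 in untreated kidneys (0.39, adjusted p = 0.761). The matrix and myofibroblast genes Acta2, Fbn2, Tnc and Timp1 lay at -0.25, -0.06, 0.19 and -0.14, and the acute phase genes Saa1 and Saa3 at -0.24 and 0.27, with overlapping groups for all but Saa1. Ccn1 (0.40) and Cebpd (-0.05) did not pass, and Col1a2 was at -0.06. The probe sets of Col1a2, Fbn2, Timp1, Saa1 and Saa3 were dim, with means below 4 over all arrays, where changes are compressed, so a change could be missed. In the list of loop of Henle and distal convoluted tubule, 1 of 20 members fell, Cldn14, a claudin that limits calcium reabsorption, which fell by 0.84 (adjusted p = 0.0215) and did not pass without untreated replicate 1 or 3 or week 3 replicate 3 or 5.

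The falls at week 3 were few and of mixed roles. Nr4a3, an orphan nuclear receptor induced as an immediate early gene, had 5.26, 5.25, 5.17, 5.29 and 5.10 in week 3 kidneys, against 7.55, 7.57 and 8.06 in untreated kidneys. The week 3 kidneys lay close together and all below the untreated ones. The change was -2.51 ± 0.32 (SE, adjusted p = 3.13e-06) and was the only one past the test among 25 measured immediate early genes, whose median was -0.02. It rests on a single probe set, since the other 2 of Nr4a3 were dim and at 0.08 and 0.01.

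Slc5a3, the sodium and myo-inositol cotransporter that loads medullary cells with osmolyte, was at 5.29, 4.58, 4.63, 4.86 and 4.65 at week 3, against 6.21, 5.91 and 5.99 in untreated kidneys (-1.23 ± 0.22 SE, adjusted p = 0.00107). Sgk1, a kinase that raises sodium transport and responds to glucocorticoid and tonicity, fell by 0.66, with 10.32, 10.04, 10.11, 10.19 and 10.13 at week 3, against 10.79, 10.66 and 11.01 in untreated kidneys (adjusted p = 0.0194), and did not pass without untreated replicate 1 or 3 or with the beta-actin ratio in the model (adjusted p = 0.201). They were the 2 of 14 osmolyte and urine concentration genes that fell (14.3%, against 0.269% of all genes), with a list median of -0.22, and Aqp2, the water channel of the collecting duct, was at -0.43 (adjusted p = 0.219). Noct, a deadenylase-like protein with a daily rhythm, was at 6.10, 6.11, 6.40, 5.98 and 6.21 at week 3, against 7.21, 6.88 and 7.99 in untreated kidneys (-1.20, adjusted p = 0.0316). Its call ended under 9 of 18 alternatives, and leaving out untreated replicate 1 or 3 or week 3 replicate 1, 2, 4 or 5 was enough. Plet1os, a transcript antisense to Plet1, fell by 1.05 at low levels (1.37, 1.33, 1.09, 1.56 and 1.34 at week 3, against 2.12, 2.39 and 2.64 in untreated kidneys).

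Below the 2-fold threshold, Creld2, a chaperone of the endoplasmic reticulum, fell by 0.95 (adjusted p = 0.0274) as the only one of 14 measured genes of that stress response to pass, and the list median was -0.18. It did not pass without untreated replicate 2 or week 3 replicate 1 or 5. Chosen after their values were seen, Bcl6, a transcriptional repressor, was at 7.86, 7.32, 7.51, 6.97 and 7.12 in week 3 kidneys, against 8.22, 8.54 and 8.16 in untreated kidneys (adjusted p = 0.0271), and Clec10a, a lectin of macrophages and dendritic cells, changed by -0.94 (adjusted p = 0.0319). Among 16 measured glucocorticoid targets, 3 had a positive change, 1 fell (Sgk1) and the median was -0.27. Of all 17097 genes, 9265 had a positive change and 0.269% fell. Per1, a clock gene that glucocorticoid also induces, was at -1.20 (4.59, 4.32, 4.92, 4.50 and 4.36 at week 3, against 5.90, 4.74 and 6.59 in untreated kidneys), did not pass (adjusted p = 0.0541) and overlapped between groups. Of 19 clock genes, 1 fell, Noct, with a list median of 0.04. The labels give no time of day. None of the 4 called-down genes, all with a promoter in the table, held the cyclic AMP response element TGACGTCA or the E-box CACGTG, which stood in 2.93% and 10.2% of measured genes with a promoter.

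Week 3 was then set directly against the neighbouring collection weeks, a comparison that leaves out the untreated kidneys. Few genes differed: 7 between week 3 and week 1 (0.0409% of genes), 2 between week 3 and week 2 (0.0117%) and 5 between week 3 and week 5 (0.0292%). Of the 117 genes called up at week 3, 2 were among the 7, Apol11b and Apod, and 0 differed from week 2 or week 5. By sign alone, 77 of the 117 were lower at week 3 than at week 1, with a median difference of -0.13. Higher than at weeks 2 and 5 were 102 and 94, with medians of 0.25 and 0.36. Of all 17097 genes, 9665, 11036 and 9304 were higher at week 3 than at weeks 1, 2 and 5. The 117 were picked for high week 3 values, which favours week 3 in these counts. The counts carry no test. For Ifit1 the means over untreated, week 1, 2, 3, 5, 7 and 9 kidneys were 5.45, 10.45, 9.55, 9.72, 8.68, 9.70 and 8.71, and the difference of week 3 from week 1 was -0.72 (adjusted p = 0.636).

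Apol11b differed from week 1 in the other direction. Its means were 4.14 ± 0.72 in untreated kidneys and 4.65 ± 0.59, 6.02 ± 0.43, 7.29 ± 0.64, 5.67 ± 1.63 and 6.70 ± 0.63 at weeks 1, 2, 3, 7 and 9 (SD, n = 3 untreated, n = 5 per week), with week 5 near week 2, so that week 3 held the highest mean. The difference from week 1 was 2.64 ± 0.47 (SE, adjusted p = 0.0109), and it was not called without week 3 replicate 5 or week 1 replicate 3. Apod, a lipocalin that carries small lipids, rose by 1.82 against untreated kidneys, a call that ended without untreated replicate 3, with the beta-actin ratio in the model (adjusted p = 0.117) and with only the 2 groups in it (adjusted p = 0.0542). Week 3 minus week 1 for Apod was -1.73 ± 0.32 (SE, adjusted p = 0.0146), at 5.26 ± 0.52 against 6.99 ± 0.31 (SD, n = 5 each). This second call ended without week 3 replicate 2 or 5, or without week 1 replicate 3 or 5.

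Zbtb16, a zinc finger repressor strongly induced by glucocorticoid, was low at week 3. It had 2.63 ± 0.21 at week 3, against 5.01 ± 0.43 at week 1 and 5.27 ± 0.63 at week 2 (SD, n = 5 each), with no overlap between week 3 and either. The difference from week 1 was -2.39 ± 0.37 and that from week 2 was -2.65 ± 0.37 (SE, adjusted p = 0.00246 and 0.00112). Against untreated kidneys, at 3.19 ± 0.22, it did not pass (-0.57, adjusted p = 0.594). The probe set of Zbtb16 was dim, with a mean of 3.77 over all arrays. Tsc22d3, which encodes the glucocorticoid-induced protein GILZ, was at 5.41 ± 0.21 at week 3 against 6.59 ± 0.44 at week 1 (-1.17 ± 0.24 SE, adjusted p = 0.0362), a call that ended under 11 of 20 alternatives, leaving out any week 3 replicate or week 1 replicate 1, 3, 4 or 5 among them. Nr4a3 was at 5.21 ± 0.08 at week 3, against 7.51 ± 0.72 at week 1 (-2.30 ± 0.28 SE, adjusted p = 5.43e-05). It kept an adjusted p below 0.05 under all 20 alternatives, with changes from -2.47 to -0.75, the last of them under 2-fold. Beside these, the adrenal cortex list, whose genes mark tissue next to the kidney, had a median of -0.79 for week 3 minus week 1, -0.66 for week 3 minus week 2 and -0.08 for week 3 minus untreated, with none of 9 members past the test in any of the 3. Single kidneys carried this: the mean level of the adrenal cortex list was 6.77 and 4.86 in week 1 replicates 4 and 1 and 6.65 in week 2 replicate 4, while the group medians were 3.58 at week 3, 3.53 at week 1 and 3.56 at week 2. Zbtb16 kept both calls without any 1 of these kidneys. No run left out week 1 replicates 1 and 4 together, and a part of adrenal tissue in the Zbtb16 difference was not tested.

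Globin transcripts separated week 3 from week 1. Hba-a1, which encodes alpha-globin, was at 10.17 ± 0.21 at week 3 against 6.56 ± 0.50 at week 1 (SD, n = 5 each), a difference of 3.61 ± 0.54 (SE, adjusted p = 0.00179), and Hbb-b2, which encodes beta-globin, differed by 2.99 (adjusted p = 0.0417). Globin genes share probe sequence, and the Hbb-b2 call ended under 12 of 20 alternatives, with the replicate block, the trend prior and leaving out any week 3 replicate or week 1 replicate 2, 3, 4 or 5 among them. The globin level of the arrays does not overlap between weeks 3 and 1 and is computed from such genes. A model with it as a covariate took the slope from variation within all 7 groups. The adjusted differences rest on that slope holding between weeks, which was not tested. In that model Nr4a3 was at -2.47 and kept its call, while the differences were -1.83 for Apod, -1.96 for Zbtb16, -1.27 for Tsc22d3 and 0.66 for Apol11b, none past the test. Blood retained in the kidney was not measured otherwise.

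The transcriptional regulator Klf10, induced by TGF-beta, was lower at week 3 than at week 2, at 7.81 ± 0.51 against 8.85 ± 0.21 (-1.04 ± 0.18 SE, adjusted p = 0.0117). The call ended under 6 of 20 alternatives. These were the globin level in the model, only the 2 groups in it, and leaving out week 3 replicate 3 or 5 or week 2 replicate 2 or 5. Lower at week 3 than at week 5 were 5 genes. Itga4, the integrin that binds Vcam1, was at 4.64 ± 0.47 at week 3 against 6.21 ± 0.64 at week 5 (SD, n = 5 each; -1.56 ± 0.26 SE, adjusted p = 0.0123). Adgre4 and Ear3, genes of macrophages and eosinophils, differed by -2.13 and -1.76, and Bcl2a1a, a survival factor of blood cells, by -1.57, with adjusted p of 0.0123, 0.0092 and 0.0226. Sox7, a transcription factor of endothelium, differed by -1.08 (adjusted p = 0.0467). Its call ended under 10 of 19 alternatives, with the beta-actin ratio, the globin level and averaged probe sets among them. The probe sets of Ear3 and Sox7 were dim, with means below 4 over all arrays. When the model held only the week 3 and week 5 arrays, none of the 5 passed, and leaving out week 5 replicate 4 ended all 5 calls. Leaving out week 3 replicate 5 or week 5 replicate 1 ended each call but that of Ear3, and leaving out week 3 replicate 1 ended those of Adgre4, Bcl2a1a and Itga4. Week 3 replicate 4 mattered in this way for Bcl2a1a and Sox7, week 3 replicate 3 for Itga4 and Sox7, and week 5 replicate 5 for Bcl2a1a, Itga4 and Sox7.

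**Figure D4:**
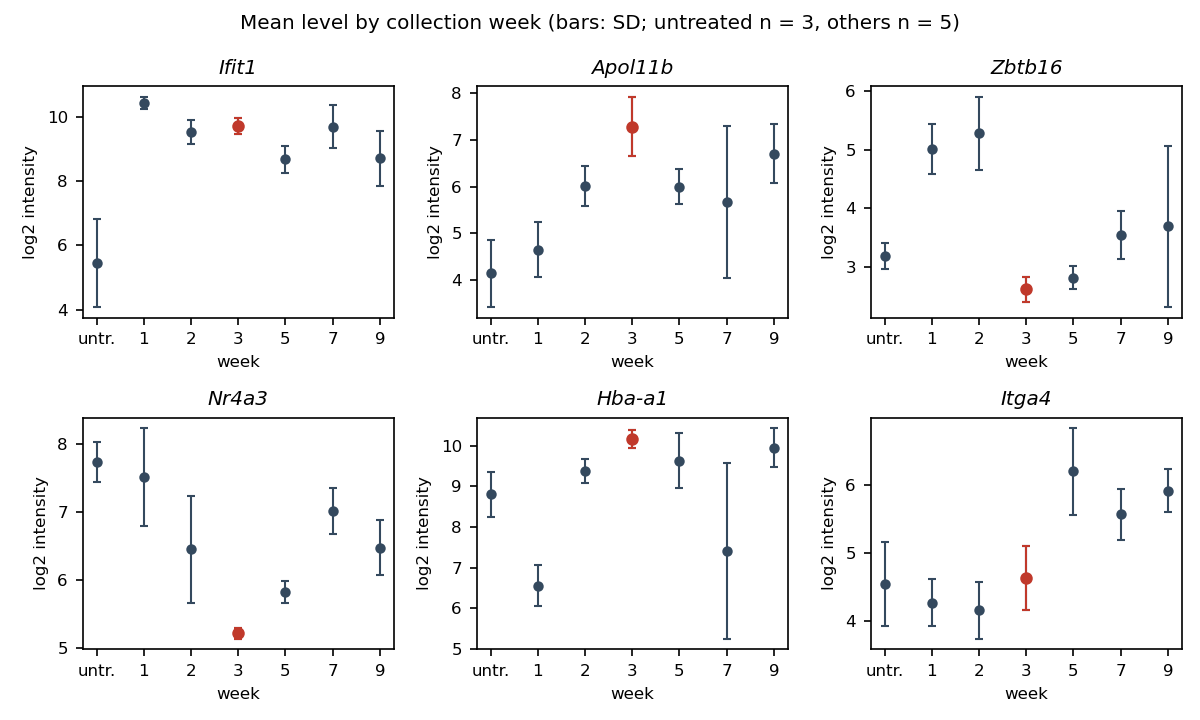
Mean log2 intensity (y axis) by collection week (x axis, untreated first) for 6 genes, with week 3 in red and bars of 1 SD (n = 3 untreated, n = 5 per week). Ifit1 is above untreated at every week, Apol11b has its highest mean at week 3 (7.29), Zbtb16 and Nr4a3 have their lowest (2.63 and 5.21), Hba-a1 is low at week 1 (6.56), and Itga4 is high from week 5 on.

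Array quality differed between the groups. The beta-actin 3′ to 5′ log2 ratio, which rises with RNA breakdown, was 1.91 ± 0.12 in week 3 arrays and 1.57 ± 0.16 in untreated arrays (SD, n = 5 and n = 3), with no overlap (two-sided exact permutation test, p = 0.0357, the smallest that 56 splits allow, and 0.0714 adjusted over 4 measures). The mean of the globin list was 7.41 in week 3 arrays and 6.96 in untreated arrays (exact p = 0.0357, adjusted 0.0714). The exact p was 0.607 for the Gapdh ratio and 0.714 for the array median. None of the 4 measures passed 0.05 after adjustment. The beta-actin ratio and the globin mean were both at the smallest p possible, so passing was hardly within reach of this test. When the beta-actin ratio entered the model, 103 genes were called up and 3 down, and 65 members of the interferon-response lists rose. With the globin level in its place these numbers were 134, 6 and 72. Of 146 genes followed in this way, 29 no longer passed with the beta-actin ratio in the model and 10 no longer passed with the globin level. The 29 include Gzma, Gzmb, Nkg7, Cxcl10, C2, Casp4, Apod, Mcm6, Noct, Sgk1, Creld2, Cldn14, Ddx60 and Slfn1. The groups do not overlap in either measure. Each model took its slope from variation within all 7 groups. Whether that slope holds between untreated and treated kidneys was not tested. Pairs of arrays correlated at 0.990 to 0.993 within week 3, 0.984 to 0.986 within untreated and 0.981 to 0.988 between the groups, over all probe sets.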

How the data were processed

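Kidney RNA of 33 BWF1 mice was labelled with NuGEN Ovation reagents and hybridised to Affymetrix HT-MG-430 PM arrays, 1 colour per array. The values the authors deposited are log2 intensities made by RMA, a method that removes background, gives every array the same distribution and summarises probes per set. The base of the logarithm was taken as 2 from the range of the values. No genome build for the probes is given in the sources used here. The submitters' processing notes name RMA and Partek and state no version. No further normalization was applied. An array has no read depth, so the number of arrays limits precision, and changes of dim probe sets are compressed.

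Of 45141 probe sets, 104 controls were left out and 45037 tested. A platform annotation paired 28898 of them with 1 gene symbol, 551 with several and 15588 with none, and the brightest probe set on average stood for each of 17097 genes. All 33 arrays entered 1 model of 7 group means in limma 3.58.1 (R 4.3.3; lmFit, eBayes, 26 residual degrees of freedom), and p-values were adjusted by Benjamini-Hochberg within each contrast, across all 45037. The fit was tested on simulated data. A gene was called at an adjusted p below 0.05 and more than 2-fold change, and a list member rose or fell at an adjusted p below 0.05. Under an alternative, a call was counted as ended by its adjusted p alone, so a call counted as kept could fall below 2-fold. The members and the 42 gene lists (694 of 803 entries measured) were chosen with earlier results of these data known. Named genes were the 15 largest rises, all called falls, up to 4 per list, genes the study names and up to 5 per direction in each direct contrast; any other gene is marked where it was picked from its values, or stands as a list member that did not pass. Alternatives were 11 settings (array weights, quality covariates, other scalings and filters, a replicate block, no fold threshold) and leaving out each array. Replicate numbers do not pair the mice, since same-numbered arrays did not deviate together.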

Additional observations from a re-analysis of the deposited data

Results flagged for a closer look

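In 5 of 146 genes tested for it, 1 week 3 kidney stood apart from the other 4 by a Dixon test, and chance gives about 1 in 20 groups. Oasl2 was high in replicate 3 (8.11) and H2-T24 in replicate 4 (8.85). Ifi27l2a was low in replicate 5 (8.27), and Ifitm3 (9.76) and Olfml3 (5.71) were low in replicate 1.

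Direct contrasts between collection weeks showed the following differences. Against week 1, week 3 differed by 3.61 for Hba-a1, 2.99 for Hbb-b2 and 2.64 for Apol11b, and by -2.39 for Zbtb16, -2.30 for Nr4a3, -1.73 for Apod and -1.17 for Tsc22d3. Against week 2 it differed by -2.65 for Zbtb16 and -1.04 for Klf10. Against week 5 it differed by -2.13 for Adgre4, -1.76 for Ear3, -1.57 for Bcl2a1a, -1.56 for Itga4 and -1.08 for Sox7. All passed an adjusted p of 0.05 in limma.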

How the results depend on the processing

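No result changed its direction under any alternative run. Of 112 called-up genes with an official name, 83 kept an adjusted p below 0.05 under every alternative that could be run for them, and 29 lost it under at least 1. Gene-level counts and the count of interferon-response members were added as results after the data were seen. At probe-set level, 197 were called up and 16 down at week 3 against untreated. Averaging a gene's probe sets, which tests fewer features, gave 107 and 3, and no fold threshold gave 484 and 136. For genes, no fold threshold gave 258 up and 46 down, and quantile normalization 7 down. Leaving out 1 array gave 180 to 230 probe sets up and 13 to 36 down (36 without untreated replicate 2), 104 to 135 genes up, 3 to 12 genes down (12 without untreated replicate 2) and 64 to 70 interferon-response members that rose.

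Week 3 minus week 1 called 21 probe sets, against 1 with the globin covariate, 5 with averaged probe sets, 41 with no fold threshold and 6 to 19 without 1 array. Week 3 minus week 2 called 5, against 8 with array weights, 2 with averaged probe sets, 2 without dim probe sets and 4 to 6 without 1 array. Week 3 minus week 5 called 6, against 21 with array weights, 1 with only the 2 groups, 3 without dim probe sets and 0 to 37 without 1 array (0 without week 5 replicate 4, 37 without week 5 replicate 2 and 23 without week 3 replicate 2). Except where the construction shows it, the cause was not tested. With the replicate number as a replicate block, week 3 against untreated called 190 probe sets up and 17 down, or 112 and 5 genes, with 69 interferon-response members that rose, and the counts against weeks 1, 2 and 5 were 13, 5 and 8. The beta-actin difference of 0.338 became 0.288 to 0.429 without 1 array, where fewer splits raise the smallest p.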
